A study of Mus musculus with 6 samples.

Results

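The response of mouse peritoneal macrophages to lipopolysaccharide (LPS) followed by ATP was described across all measurable genes. Of the 54532 genes in the deposited table, 9833 had a mean of at least 1 FPKM (fragments per kilobase of gene, scaled per library) over the 4 libraries compared, and all 9833 were tested. The genes nearest to this limit were Gm15987, with a mean of 1.00 FPKM inside it, and Rsph3a, with a mean of 0.999955 FPKM outside it. The macrophages were elicited with thioglycolate in male wild-type C57BL/6J mice of 6 to 8 weeks, washed from the peritoneum and cultured overnight. Control cells were left untreated. Model cells received 500 ng/mL LPS for 5.5 h and then 2 mM ATP for 0.5 h. Each group had 2 poly-A RNA-seq libraries, and 2 further libraries with muscone (MUS) were used only for the estimate of the spread between replicates. No source used here ties the libraries to separate animals or cultures, so p-values measure the spread between these libraries, which may be technical. A group without ATP was not analysed here, so that effects of LPS and of ATP cannot be told apart.

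LPS is a component of the outer membrane of Gram-negative bacteria that CD14 and Toll-like receptor 4 (TLR4) recognise. TLR4 signals through the adaptor MyD88 to NF-κB and AP-1, which switch on cytokine genes, and through the adaptor TRIF to IRF3, which switches on type I interferon and CXCL10. Secreted interferon then acts back on the cells through a complex that holds STAT2 and IRF9 and binds the interferon-stimulated response element (ISRE). Extracellular ATP opens the P2X7 channel, and the loss of potassium that follows allows the NLRP3 inflammasome to assemble and caspase-1 to cleave pro-IL-1β.

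The fragments on genes, recovered from the table, numbered between 15526321 and 17135442 per library. Control replicate 2 stood apart from Control replicate 1. On the log2(FPKM + 1) scale across genes, the Control libraries correlated with each other with r = 0.922 and the Model libraries with r = 0.943, while Control replicate 2 correlated with the Model libraries with r = 0.860 and 0.874 and Control replicate 1 with r = 0.739 and 0.727. Of the genes upregulated in Model, 783 of 910 were higher in Control replicate 2 than in Control replicate 1, as were 78 of 570 downregulated genes and 5144 of all 9833. Model replicate 1 had at least 1 fragment on 24906 genes, compared with 18174 to 19200 genes in the other 3 libraries. All 8 macrophage markers were expressed, and their summed level was 11961 and 13746 FPKM in Control and 14283 and 9574 FPKM in Model. Among them, Fcgr1 and Cd14 were upregulated DEGs (log2 fold changes 3.57 and 2.64) and Csf1r was a downregulated DEG (log2 fold change -1.37). The FPKM of all genes summed to 233863 and 237698 in Control and 391736 and 301384 in Model. Summed levels here and below are therefore not shares of a library. Of the 43 marker genes listed for lymphocytes, granulocytes, mast cells, dendritic cells and mesothelium or fibroblasts, 32 were under 1 FPKM in all 4 libraries, and Ly6g, Elane, Retnlg, S100a9, Epx, Prg2, Ear1 and Fcer1a were listed at 0. Summed levels of the neutrophil list were 46.8 and 49.1 FPKM in Control and 156 and 129 FPKM in Model and those of the dendritic cell list were 0.770, 1.40, 6.83 and 6.92 FPKM. Those of the T and innate lymphocyte list were 164 and 127 FPKM in Control and 76.6 and 107 FPKM in Model, nearly all of it Il7r (log2 fold change -0.70, limma adjusted p = 0.185), while Lck of this list was an upregulated DEG (log2 fold change 1.47). Of the 2 neutrophil genes tested, S100a8 was an upregulated DEG (log2 fold change 1.90) and Csf3r was not a DEG (log2 fold change 1.19). Ccr7, the dendritic cell gene tested, was an upregulated DEG (log2 fold change 1.97). The part of such cells in the results below was not tested. In such bulk libraries, a change in the number of cells of a type and a change of RNA per cell cannot be told apart.

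**Figure D1:**
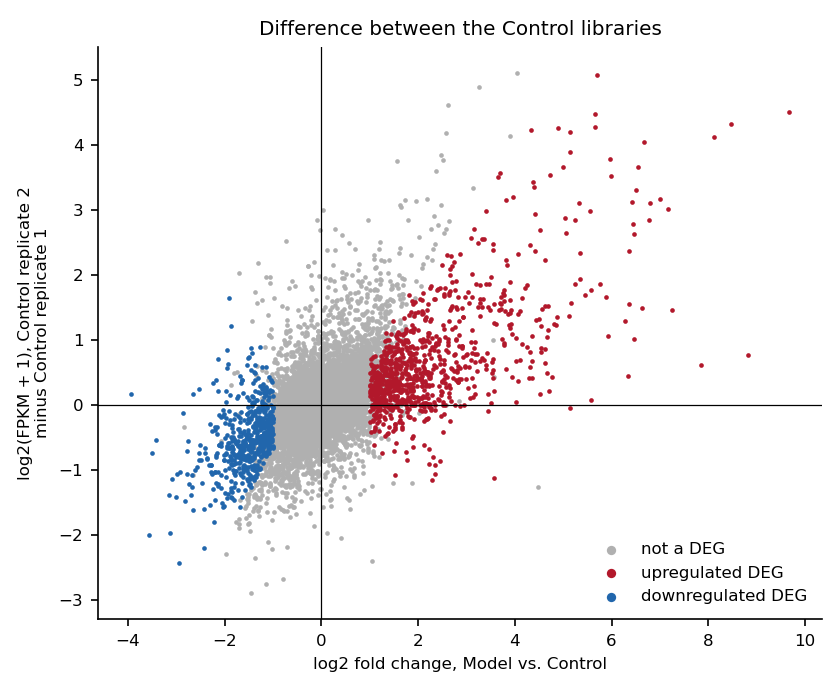
Difference between the Control libraries on the log2(FPKM + 1) scale (y axis) against the log2 fold change of Model vs. Control (x axis), with 1 point per gene tested, red for upregulated and blue for downregulated DEGs. Of the upregulated DEGs, 783 of 910 lie above 0 on the y axis, compared with 78 of 570 downregulated DEGs.

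Comparison of Model vs. Control gave 1480 differentially expressed genes (DEGs), defined by an adjusted p of at most 0.05 in limma's moderated test and an absolute log2 fold change over 1. They were 15.1% of the genes tested, with 910 upregulated (9.25%) and 570 downregulated (5.80%). The shares of 9.25% and 5.80% are the background for the counts of each list below. Of the upregulated DEGs, 95 had a log2 fold change over 4 and 321 a change between 2 and 4, with a median of 1.89. Of the downregulated DEGs, 82 fell below -2 and 0 below -4, with a median of -1.45. The libraries did not overlap between the groups for any of the 1480 DEGs, whereas both Model libraries lay above both Control libraries for 31.8% and below them for 29.7% of all genes tested. Fold changes are on the log2(FPKM + 1) scale, which understates the change of genes near 0. The filter used the mean over both groups, so a gene near 0 in Control passed only through its Model level, and the reverse. Both Control libraries were under 1 FPKM for 140 of the 910 upregulated DEGs. Both Model libraries were under 1 FPKM for 151 of the 570 downregulated DEGs. Listed genes that were low in both groups are left out of the counts below.

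The share of all fragments on the DEGs is a description, as its direction follows from the choice of the genes. Upregulated DEGs held 5.12% and 8.51% of all fragments in Control and 31.2% and 30.5% in Model. Downregulated DEGs went from 7.70% and 5.19% in Control to 1.06% and 1.43% in Model.

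**Figure D2:**
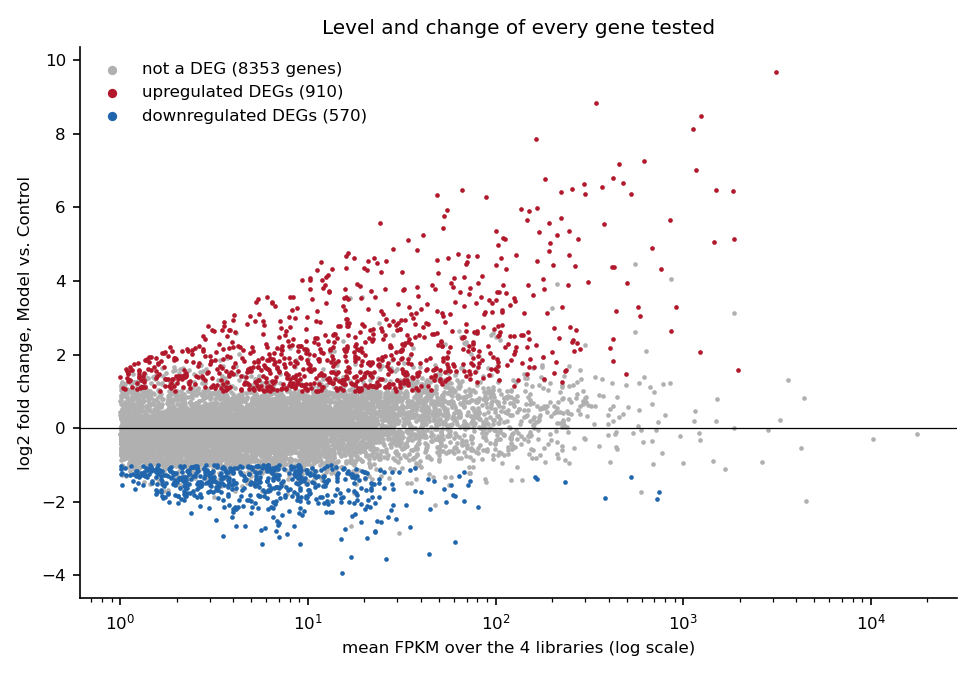
Log2 fold change of Model vs. Control (y axis) against the mean FPKM over the 4 libraries on a log scale (x axis), with 1 point per gene tested. The 910 upregulated DEGs (red) reach a log2 fold change of 9.67, whereas the 570 downregulated DEGs (blue) reach -3.94.

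The balance of the response depended on how the libraries were scaled. The deposited FPKM centre the typical gene near no change (median log2 fold change 0.02 over all genes tested). When fragments were instead scaled to the total of each library, the median of all genes was -0.43 and the DEGs numbered 634 upregulated and 1636 downregulated, 27.9% upregulated compared with 61.5% on the deposited scale. Of the DEGs on the deposited scale, 634 of 910 upregulated and 570 of 570 downregulated genes were DEGs in the same direction with fragment-total scaling. The number of DEGs also varied with the libraries, from 767 without Control replicate 1 to 2122 without Control replicate 2, 413 without Model replicate 1 and 1033 without Model replicate 2. For most groups of genes below, DEG counts are therefore also given with the 4 libraries left out in turn, always in this order. Of 136 DEGs chosen by rule and named here, 95, 130, 38 and 77 kept their call. The 38 that did so without Model replicate 1 were Il6, Edn1, Ccl7, Slfn4, Trim30c, Slc43a2, Tmem86a, Cd300lb, Pdxk, Sesn1, Gpr65, Usp18, Socs3, Ier3, Ier2, Irf7, Arid5a, Tlr3, Nos2, Ch25h, Pfkfb3, Fads1, Scd2, Hilpda, Serpinb2, Fcgr1, Adora2b, S1pr1, Cd86, Ccnd2, Rbl1, Cat, Lcn2, Hamp, Tfrc, Timp1, Mmp13 and Mlkl. With fragment-total scaling Tfec, Maf, Hk2, Mt1, Slc15a3, Actb and S100a8 lost theirs, and with the batch of the labels as a block Lipa, Ifi30 and Actb did (adjusted p = 0.0635, 0.0517 and 0.0644). In a fit of only the 4 Control and Model libraries, without MUS, 48 lost theirs.

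Among the 15 largest increases, the cytokine genes Il1b and Il6 led, followed by the chemokine Cxcl10, the cyclooxygenase Ptgs2 and the vasoconstrictor peptide gene Edn1. Il6 (ENSMUSG00000025746, chromosome 5, 30013114 to 30019981, plus strand; GRCm38), which encodes the cytokine that drives the acute phase response, had 0.0901 and 0.864 FPKM in Control and 917 and 454 FPKM in Model (log2 fold change 8.82, standard error 0.48, limma adjusted p = 0.000498). Edn1 (ENSMUSG00000021367, chromosome 13, 42301476 to 42307990, plus strand), the gene of endothelin-1, had 0.102 and 0.695 FPKM in Control and 425 and 233 FPKM in Model (log2 fold change 7.85, standard error 0.40, limma adjusted p = 0.000498). Both genes were under 1 FPKM in both Control libraries, with 5 fragments each in Control replicate 1 and 48 and 34 fragments in Control replicate 2, and Model was far above them. Il1b, the gene of pro-IL-1β, had 0.550 and 34.2 FPKM in Control and 7646 and 4750.0 FPKM in Model (log2 fold change 9.67, standard error 1.26, limma adjusted p = 0.00481). Ptgs2 (ENSMUSG00000032487, chromosome 1, 150100031 to 150108227, plus strand), the inducible enzyme of prostaglandin synthesis, had 0.907 and 32.1 FPKM in Control and 2494 and 1976 FPKM in Model (log2 fold change 8.13, standard error 1.15, limma adjusted p = 0.00618). Cxcl10 (ENSMUSG00000034855, chromosome 5, 92346638 to 92348889, minus strand), a chemokine for activated T cells, had 0.505 and 29.2 FPKM in Control and 3154 and 1811 FPKM in Model (log2 fold change 8.47, standard error 1.22, limma adjusted p = 0.00646). For Il1b, Ptgs2 and Cxcl10 the Control libraries differed widely, with Control replicate 2 the higher, and both lay far below Model.

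The other genes of the top 15 were the monocyte chemoattractant Ccl7, the 4-span membrane protein gene Ms4a4c and a block of mostly interferon-stimulated genes. Ccl7 had 3.71 and 11.95 FPKM in Control and 1571 and 891 FPKM in Model (log2 fold change 7.24). This block held Cmpk2, Rsad2, Isg15, Ifit1, Ifit2 and Mx1, of the list of interferon-stimulated genes below, and Slfn4 and Trim30c, outside that list. Log2 fold changes in the block lay between 6.47 and 7.17. Ms4a4c had 0.225 and 7.81 FPKM in Control and 400.4 and 323 FPKM in Model (log2 fold change 6.78). Limma adjusted p over these 15 genes ranged from 0.000498 to 0.0108. All 15 were DEGs without either Control library and with fragment-total scaling. Without Model replicate 1 only Il6, Edn1, Ccl7, Slfn4 and Trim30c were DEGs, with adjusted p over the 15 between 0.0196 and 0.0959, and 12 were DEGs without Model replicate 2.

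**Figure D3:**
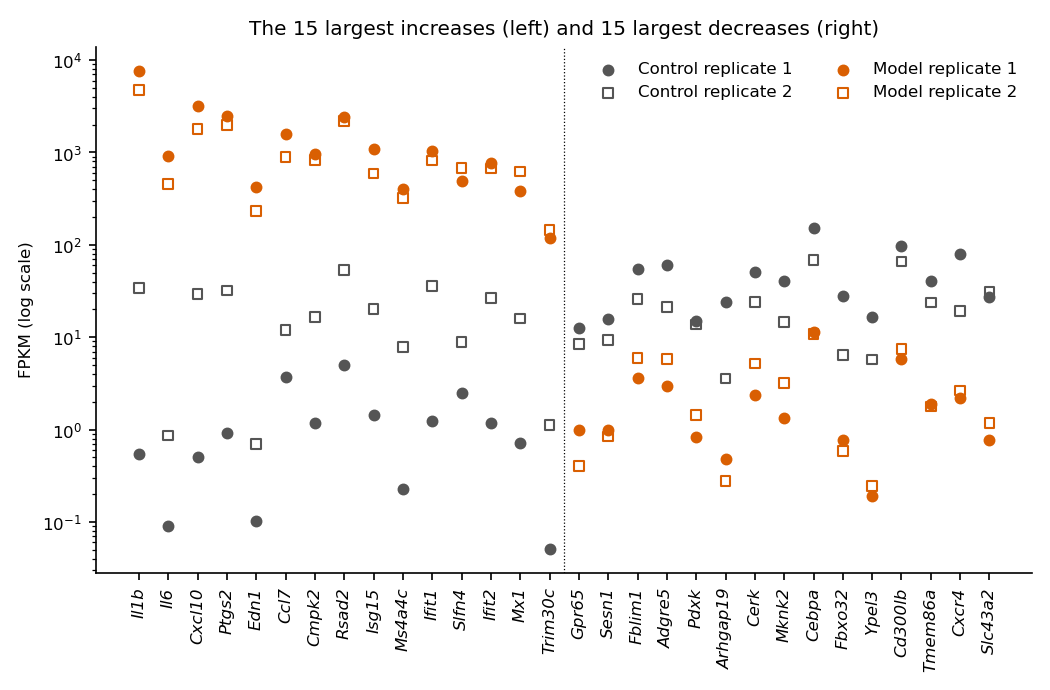
FPKM on a log scale (y axis) of the 15 protein-coding genes with the largest increases and the 15 with the largest decreases (x axis), with filled circles for replicate 1 and open squares for replicate 2 of Control (grey) and Model (orange). Control replicate 2 lies above Control replicate 1 for all 15 increases. Genes were chosen only where the libraries of the groups did not overlap, so the separation of all 30 follows from the choice.

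Cytokine genes rose as a group. Of 34 genes listed, 27 passed the filter and were tested. Some of them, such as Il6 and Edn1, passed only through their Model level. Of the 27, 22 were upregulated and 2 downregulated, with a median log2 fold change of 4.03 (4.78 in batch 1 and 3.56 in batch 2). On the log2 scale, 14 rose by more than 4. Il1a, whose product is an alarmin active without cleavage, had 12.4 and 81.99 FPKM in Control and 3255 and 2658 FPKM in Model (log2 fold change 6.46, limma adjusted p = 0.004), which placed it among the 5 DEGs with the highest level in Model. Tnf, the gene of tumour necrosis factor, had 8.62 and 183 FPKM in Control and 1510.5 and 1034 FPKM in Model (log2 fold change 4.89, limma adjusted p = 0.0327). Its Control libraries were unequal, and the Model libraries both lay above the higher of them. The genes that fell were Vegfa, an angiogenic factor, with 24.7 and 9.03 FPKM in Control and 3.09 and 2.95 FPKM in Model (log2 fold change -1.998), and Tnfsf12, the gene of TWEAK, with 50.6 and 20.3 FPKM in Control and 9.87 and 6.48 FPKM in Model (log2 fold change -1.88). Tnfsf12 shares 46.8% of its 50-base stretches with other genes, so its count is uncertain. With each library left out in turn (Control replicate 1, Control replicate 2, Model replicate 1, Model replicate 2), 22, 22, 15 and 20 cytokine genes were upregulated DEGs, and Tnf had an adjusted p of 0.172 without Model replicate 1.

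Chemokine genes followed the same course, with 17 of 22 upregulated, 1 downregulated and a median log2 fold change of 3.02 (4.28 in batch 1 and 1.99 in batch 2). Their summed level was 526 and 2601 FPKM in Control and 27068 and 15029 FPKM in Model. Ccl4 (MIP-1β), which attracts monocytes and T cells, had 13.3 and 97.6 FPKM in Control and 5173 and 2042 FPKM in Model (log2 fold change 6.44, limma adjusted p = 0.00588). The neutrophil chemoattractant Cxcl2 had 24.3 and 374 FPKM in Control and 4421 and 2639 FPKM in Model (log2 fold change 5.13, limma adjusted p = 0.0239). Both were among the 5 DEGs with the highest level in Model, and Cxcl2 was already substantial in Control replicate 2. Cxcl14 went against the group, with 14.5 and 5.26 FPKM in Control and 2.40 and 1.59 FPKM in Model (log2 fold change -1.73). In the order above, 14, 19, 5 and 9 chemokine genes were upregulated with a library left out, and Ccl4 and Cxcl2 had adjusted p of 0.0667 and 0.149 without Model replicate 1.

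Interferon-stimulated genes rose throughout their list. All 49 of the 50 listed genes that were tested were upregulated, compared with 9.25% of all genes, with a median log2 fold change of 3.89 (4.71 in batch 1 and 3.08 in batch 2) and a range from 1.66 to 7.17. Their summed level was 498 and 1511 FPKM in Control and 17466 and 14860.3 FPKM in Model. Rsad2, the gene of the antiviral protein viperin, had 4.99 and 53.1 FPKM in Control and 2439 and 2195 FPKM in Model (log2 fold change 7.01, limma adjusted p = 0.00481). Isg15, a ubiquitin-like protein that is attached to other proteins, had 1.45 and 20.1 FPKM in Control and 1083 and 592 FPKM in Model (log2 fold change 6.80, limma adjusted p = 0.00517). Cmpk2, a nucleotide kinase located next to Rsad2 on chromosome 12, had 1.19 and 16.7 FPKM in Control and 966 and 826 FPKM in Model (log2 fold change 7.17, limma adjusted p = 0.00385). All of these genes showed the same order of the libraries, with Control replicate 1 lowest and Control replicate 2 next. Of the 49, 47 were upregulated with fragment-total scaling, and 46, 49, 13 and 26 with the libraries left out in turn. The loss without Model replicate 1 was of the adjusted p, since the median log2 fold change was then 4.01.

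Sequences upstream of these genes were searched for the elements through which interferon and NF-κB are known to act. RefSeq start sites on GRCm38.p6 gave a window of 250 bases upstream for 6977 of the 8731 protein-coding genes tested. The ISRE was searched as GAAANNGAAA on both strands and NF-κB as its degenerate consensus. The windows shown are those of Il6 and Cxcl10, as cytokine and chemokine genes of the top 15, and of the interferon-stimulated genes Isg15, Ifit1 and Rsad2, each read 5′ to 3′ along the strand of the gene up to the base before the start, with ISRE and NF-κB matches in capitals and other motifs not marked. They were chosen among windows with a match. Of the 15 largest increases, 13 had a window, and 6 of these (Il1b, Ptgs2, Cmpk2, Ms4a4c, Slfn4 and Trim30c) held neither motif, whereas Edn1 held an ISRE and Ifit2 an NF-κB match. Their positions are chr5:30012864-30013113 on the plus strand, chr5:92348890-92349139 on the minus strand, chr4:156200819-156201068 on the minus strand, chr19:34640639-34640888 on the plus strand and chr12:26456453-26456702 on the minus strand.
Il6: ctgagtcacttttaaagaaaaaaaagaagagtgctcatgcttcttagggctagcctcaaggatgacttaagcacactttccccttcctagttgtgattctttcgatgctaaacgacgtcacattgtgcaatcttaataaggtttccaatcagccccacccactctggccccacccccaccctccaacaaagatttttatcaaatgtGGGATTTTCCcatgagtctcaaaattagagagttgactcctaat
Cxcl10: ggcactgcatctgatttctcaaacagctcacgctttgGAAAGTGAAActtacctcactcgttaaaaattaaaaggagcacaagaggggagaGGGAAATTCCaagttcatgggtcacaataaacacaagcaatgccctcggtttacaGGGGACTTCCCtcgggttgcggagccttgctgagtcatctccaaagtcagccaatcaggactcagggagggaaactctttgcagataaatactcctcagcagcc
Isg15: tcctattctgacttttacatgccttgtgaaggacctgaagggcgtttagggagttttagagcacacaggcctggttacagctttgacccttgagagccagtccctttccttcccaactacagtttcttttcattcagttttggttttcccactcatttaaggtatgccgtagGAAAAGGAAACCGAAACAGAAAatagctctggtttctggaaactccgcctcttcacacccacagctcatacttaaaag
Ifit1: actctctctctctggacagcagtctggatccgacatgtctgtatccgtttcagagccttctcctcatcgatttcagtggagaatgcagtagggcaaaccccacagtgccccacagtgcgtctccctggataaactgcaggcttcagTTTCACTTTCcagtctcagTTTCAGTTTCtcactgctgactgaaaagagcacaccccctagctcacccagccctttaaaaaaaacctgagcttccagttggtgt
Rsad2: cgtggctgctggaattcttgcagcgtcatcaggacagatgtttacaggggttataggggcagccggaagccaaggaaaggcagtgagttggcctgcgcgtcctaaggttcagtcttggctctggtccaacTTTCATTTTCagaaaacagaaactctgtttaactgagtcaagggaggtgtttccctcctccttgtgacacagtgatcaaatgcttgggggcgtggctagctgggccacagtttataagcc

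The Il6 window holds an NF-κB match that begins 44 bases upstream of the start. In Cxcl10 an ISRE match begins at -213 and NF-κB matches at -159, -104 and -103, the last pair being overlapping readings of the same stretch. Isg15 has 3 overlapping ISRE matches in a row between -78 and -66, Ifit1 has matches at -104 and -85 and Rsad2 has 1 at -120. Those of Ifit1 and Rsad2 are read on the opposite strand. A match describes the letters in the window and is not evidence of binding.

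Across the response, ISRE matches were found in 12.5% of windows of upregulated DEGs (77 of 616 genes) and in 35.6% of those of the 100 largest increases (26 of 73), compared with 2.95% of downregulated DEGs (12 of 407) and 3.63% of all genes tested. NF-κB matches were present in 14.9% of upregulated, 12.3% of downregulated and 10.5% of all genes tested, and in 19.2% of the 100 largest increases and 12.8% of the 100 largest decreases. The AP-1 site (TGAGTCA or TGACTCA) was present in 7.63%, 4.91% and 4.10%, and in 16.4% of the 100 largest increases and 7.69% of the 100 largest decreases. TATAAA was found in 28.8% of the 100 largest increases and 12.8% of the 100 largest decreases, compared with 7.65% of all genes tested. The E-box CACGTG ran the other way, with 8.28% of upregulated, 14.5% of downregulated and 10.8% of all genes tested. CpG dinucleotides were also sparse upstream of the strongly induced genes, with a median of 1.2 per 100 bases for the 100 largest increases, 6.4 for the 100 largest decreases and 6.8 for all genes tested. In all 32851 RefSeq windows of this length, 2.98% held the ISRE, 7.25% NF-κB, 4.46% AP-1, 12.4% TATAAA and 6.02% CACGTG.

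The transcripts of induced and repressed genes also differed in build. Upregulated DEGs had a median of 7 exons and downregulated DEGs of 10, compared with 9 for all protein-coding genes tested, and for the 100 largest increases the median was 6. Median transcript length was 2757 bases for upregulated, 3460 for downregulated and 2898 for all genes tested. GC content was 48.3%, 53.0% and 49.9%. The AU-rich motif TATTTAT, known as a binding site of mRNA-destabilising proteins such as tristetraprolin, occurred in the 3′ UTR of 42.9% of the 100 largest increases and 18.4% of the 100 largest decreases, with 35.5% of all upregulated DEGs, 27.5% of all downregulated DEGs and 28.1% of all genes tested. Per kilobase of 3′ UTR the motif occurred 1.01 times in the former, 0.136 times in the latter and 0.295 times over all genes tested. These are descriptions without a test. After a correction for GC content 1415 DEGs were called and after a correction for gene length 1523.

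**Figure D4:**
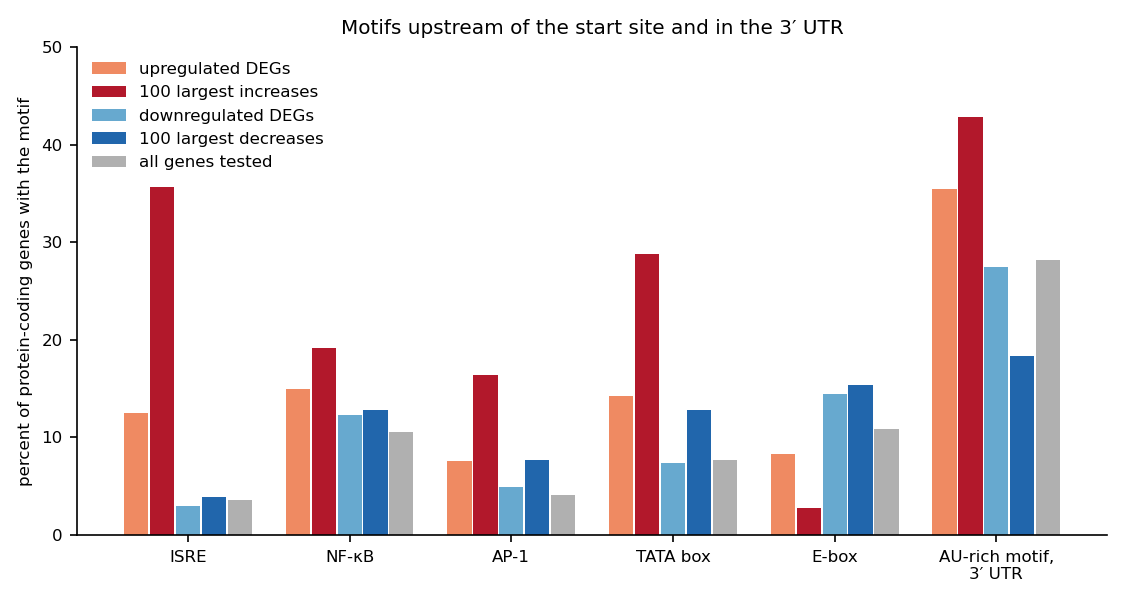
Percent of protein-coding genes (y axis) with each motif (x axis) in the 250 bases upstream of the start or, for the AU-rich motif, in the 3′ UTR, for upregulated DEGs, the 100 largest increases, downregulated DEGs, the 100 largest decreases and all genes tested. The ISRE is found in 35.6% of the 100 largest increases and 3.85% of the 100 largest decreases.

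Transcription factors of the response were upregulated in part. Of 27 genes of NF-κB, IRF and related transcription factors, 12 were upregulated and 0 downregulated (median 1.61). Irf7, which amplifies the interferon response, had 3.08 and 8.07 FPKM in Control and 152 and 157 FPKM in Model (log2 fold change 4.68, limma adjusted p = 0.00155). Stat2, which acts downstream of the interferon receptor, had 3.23 and 12.4 FPKM in Control and 47.5 and 87.1 FPKM in Model (log2 fold change 3.12, limma adjusted p = 0.0128). For Rela, the NF-κB subunit p65, which is controlled mainly by its movement into the nucleus, the values were 34.4 and 58.3 FPKM in Control and 98.1 and 68.03 FPKM in Model (limma adjusted p = 0.168), and the groups did not overlap but the test was not passed. With the libraries left out in turn, 10, 15, 2 and 5 of the list were upregulated.

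Of 36 genes of feedback inhibitors of inflammatory signalling and related proteins, 17 were upregulated and 2 downregulated (median 1.35). Usp18, which removes ISG15 from proteins and blocks the interferon receptor, had 1.76 and 7.74 FPKM in Control and 351 and 241 FPKM in Model (log2 fold change 5.89, limma adjusted p = 0.00177). Socs3, an inhibitor of JAK kinases downstream of IL-6, had 3.30 and 13.6 FPKM in Control and 379.8 and 374 FPKM in Model (log2 fold change 5.58, limma adjusted p = 0.00255). Nfkbia, the gene of the inhibitor IκBα, had 34.2 and 140.2 FPKM in Control and 474 and 419 FPKM in Model (log2 fold change 2.66, limma adjusted p = 0.0291), with Control replicate 2 well above Control replicate 1. The atypical IκB gene Nfkbiz rose by 3.83 and the mRNA-destabilising Zfp36 (tristetraprolin) by 2.35 on the log2 scale. Its relative Zfp36l2 fell, with 127 and 60.98 FPKM in Control and 23.3 and 25.5 FPKM in Model (log2 fold change -1.81), as did the signalling adaptor Sh2b2 (log2 fold change -1.42). In turn, 15, 21, 8 and 11 members were upregulated with a library left out.

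Immediate early genes, most of them of transcription factors, gave a mixed picture at this time, after both stimuli. Of 25 genes, 9 were upregulated and 2 downregulated (median 0.74). Ier3 had 12.4 and 19.4 FPKM in Control and 209 and 143 FPKM in Model (log2 fold change 3.39, limma adjusted p = 0.00255) and Ier2 15.1 and 18.6 FPKM in Control and 183 and 136 FPKM in Model (log2 fold change 3.16, limma adjusted p = 0.00197), and both kept the call in the fit without Model replicate 1. Jun, a subunit of AP-1, fell, with 49.6 and 28.6 FPKM in Control and 9.62 and 13.8 FPKM in Model (log2 fold change -1.63, limma adjusted p = 0.0219; 0.122 without Model replicate 1), and so did Klf10 (log2 fold change -1.14).

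Of the inflammasome and pyroptosis genes, 8 of 17 were upregulated and 0 downregulated, with a median of 0.91. The sensor gene Nlrp3 had 7.20 and 52.5 FPKM in Control and 167 and 205 FPKM in Model (log2 fold change 3.15, limma adjusted p = 0.0347). Casp1, the protease that cleaves pro-IL-1β, had 28.9 and 55.7 FPKM in Control and 300.0 and 211 FPKM in Model (log2 fold change 2.62, limma adjusted p = 0.00868), and its other substrate Il18 had 2.84 and 9.45 FPKM in Control and 109 and 68.9 FPKM in Model (log2 fold change 3.79, limma adjusted p = 0.00502). The groups did not overlap for any of these, as for all DEGs. Pycard, the gene of the adaptor ASC, had 8.85 and 10.6 FPKM in Control and 18.03 and 8.29 FPKM in Model, with overlapping groups and a log2 fold change of 0.31 (limma adjusted p = 0.565), which was -0.19 with fragment-total scaling and -0.20 without Model replicate 1. With the libraries left out in turn, 8, 8, 0 and 3 genes of the list were upregulated, and Nlrp3 and Casp1 had adjusted p of 0.15 and 0.0667 without Model replicate 1.

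Receptors and adaptors of the Toll-like receptor pathway gave DEGs in both directions, with 9 of 32 upregulated and 1 downregulated (median 0.56). Tlr3, the sensor of double-stranded RNA and itself an interferon-stimulated gene, had 1.70 and 2.87 FPKM in Control and 29.5 and 28.8 FPKM in Model (log2 fold change 3.22, limma adjusted p = 0.00155). The LPS co-receptor Cd14 had 125 and 406 FPKM in Control and 1748 and 1148 FPKM in Model (log2 fold change 2.64, limma adjusted p = 0.0255), and the kinase gene Ripk2, which acts below the NOD receptors, had 5.26 and 9.55 FPKM in Control and 46.1 and 39.5 FPKM in Model (log2 fold change 2.43, limma adjusted p = 0.00658). Tlr13, a sensor of bacterial ribosomal RNA, was the member that fell, with 105 and 85.02 FPKM in Control and 19.7 and 32.7 FPKM in Model (log2 fold change -1.85, limma adjusted p = 0.0121). In turn, 4, 12, 2 and 4 members were upregulated with a library left out, and the call of Tlr3 held in each case.

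Some effector enzymes were strongly induced. Of 20 genes of prostaglandin, nitric oxide and itaconate metabolism, 9 were upregulated and 1 downregulated (median 1.55). Nos2, the inducible nitric oxide synthase, had 0 and 0.367 FPKM in Control and 70.9 and 124 FPKM in Model (log2 fold change 6.34, limma adjusted p = 0.000498). Ch25h, which makes the antiviral oxysterol 25-hydroxycholesterol, had 0.194 and 1.49 FPKM in Control and 139.6 and 77.9 FPKM in Model (log2 fold change 5.93, limma adjusted p = 0.00106). Both were close to 0 in the Control libraries and were DEGs without Model replicate 1 as well (adjusted p = 0.0196 and 0.0255). Slc7a2, the transporter of arginine, the substrate of nitric oxide synthase, rose from 6.04 and 71.0 FPKM to 369 and 613 FPKM (log2 fold change 4.40, limma adjusted p = 0.0246). Lta4h, which makes leukotriene B4, fell, with 11.8 and 7.17 FPKM in Control and 4.52 and 3.49 FPKM in Model (log2 fold change -1.04, limma adjusted p = 0.0431). Acod1, the itaconate synthase, did not pass the test, with 14.1 and 518 FPKM in Control and 1522 and 1387 FPKM in Model (log2 fold change 4.04, limma adjusted p = 0.0915). The count of upregulated genes was 9, 11, 3 and 5 with the libraries left out in turn.

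Central carbon metabolism gave few DEGs. Of 22 genes of glycolysis and glucose uptake, 2 were upregulated and 2 downregulated (9.09% each, near the 9.25% and 5.80% of all genes tested), with a median of -0.49. Pfkfb3, which makes the activator of phosphofructokinase, had 14.5 and 7.90 FPKM in Control and 40.6 and 79.3 FPKM in Model (log2 fold change 2.30, limma adjusted p = 0.0135), and hexokinase 2 (Hk2) had 7.88 and 12.9 FPKM in Control and 26.5 and 35.5 FPKM in Model (log2 fold change 1.51, limma adjusted p = 0.0213). Glucose-6-phosphate dehydrogenase (G6pdx) and glucose phosphate isomerase (Gpi1) fell, with log2 fold changes of -1.20 and -1.11. In the TCA cycle list 0 of 27 genes rose and 1 fell (median -0.11). This was Idh1, the cytosolic enzyme that makes NADPH from isocitrate, with 87.7 and 36.01 FPKM in Control and 9.31 and 6.82 FPKM in Model (log2 fold change -2.67, limma adjusted p = 0.00833; 0.0615 without Model replicate 1). With fragment-total scaling 10 glycolysis genes and 4 TCA cycle genes were downregulated.

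Genes of antigen presentation by MHC class I and class II were counted separately. For class I, 15 of 23 genes were upregulated and 0 downregulated (median 1.68). Tap1, the peptide transporter of the endoplasmic reticulum, had 6.33 and 19.8 FPKM in Control and 112 and 134 FPKM in Model (log2 fold change 3.32, limma adjusted p = 0.00735). Nlrc5, the transactivator of class I genes, had 2.15 and 8.99 FPKM in Control and 28.00 and 64.7 FPKM in Model (log2 fold change 2.96, limma adjusted p = 0.0187). Psme2, a subunit of the proteasome activator, had 10.8 and 32.6 FPKM in Control and 315 and 148 FPKM in Model, but 28.3% of its 50-base stretches are shared with other genes. In the class II list 4 of 14 genes were upregulated, and all 4 encode ligands or receptors that modulate T cells. They were Cd80 (log2 fold change 1.81), Cd40 with 1.72 and 22.5 FPKM in Control and 406 and 255 FPKM in Model (log2 fold change 5.33, limma adjusted p = 0.0103), Cd274 (PD-L1) with 58.7 and 183 FPKM in Control and 876 and 1181 FPKM in Model (log2 fold change 3.28, limma adjusted p = 0.0108) and Cd86 with 7.28 and 13.1 FPKM in Control and 76.7 and 67.05 FPKM in Model (log2 fold change 2.75, limma adjusted p = 0.004). Ifi30, a lysosomal thiol reductase, fell (log2 fold change -1.32). The median of the class II list was 0.26, and -0.27 with fragment-total scaling. Left out in turn, the libraries gave 6, 18, 1 and 8 upregulated class I genes.

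Proteasome genes had slightly higher levels in Model on the deposited scale. Both Model libraries lay above both Control libraries for 25 of 33 genes, compared with 31.8% of all genes tested. However, 3 were upregulated DEGs (9.09%, near the 9.25% of all genes tested) and 0 downregulated. The median was 0.65, and 0.13 with fragment-total scaling. The largest change was that of Psma6, with 84.6 and 172 FPKM in Control and 1001 and 427 FPKM in Model (log2 fold change 2.43, limma adjusted p = 0.0261; 0.125 without Model replicate 1), and Psma5 and Psma3, with log2 fold changes of 2.01 and 1.59, were the other DEGs. Of Psma5, 49.1% of the 50-base stretches are shared with other genes.

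Genes of survival and cell death included 10 upregulated and 2 downregulated DEGs among 34 (median 0.72). Zbp1, a nucleic acid sensor that can start necroptosis, had 1.43 and 7.25 FPKM in Control and 53.03 and 68.6 FPKM in Model (log2 fold change 3.78, limma adjusted p = 0.00621). Mlkl, which permeabilises the membrane in necroptosis, had 5.09 and 8.86 FPKM in Control and 87.4 and 70.8 FPKM in Model (log2 fold change 3.36, limma adjusted p = 0.00214). The groups were far apart for both. Bbc3 (PUMA), a pro-apoptotic BH3-only gene, fell, with 3.07 and 1.77 FPKM in Control and 0.234 and 0.608 FPKM in Model (log2 fold change -1.25), as did Casp9 (log2 fold change -1.06). Upregulated members numbered 6, 14, 2 and 6 with the libraries left out in turn.

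Some genes of the cell surface and its surroundings changed. Of 34 genes of adhesion and matrix, 9 were upregulated and 1 downregulated, although the list's median was 0.22 (-0.27 with fragment-total scaling). Timp1, an inhibitor of matrix metalloproteinases, had 4.97 and 4.77 FPKM in Control and 294 and 147 FPKM in Model (log2 fold change 5.15, limma adjusted p = 0.00114). The collagenase gene Mmp13 had 9.29 and 17.1 FPKM in Control and 360.3 and 278 FPKM in Model (log2 fold change 4.54, limma adjusted p = 0.00151) and the proteoglycan gene Sdc4 6.47 and 37.6 FPKM in Control and 490.2 and 271 FPKM in Model (log2 fold change 4.43, limma adjusted p = 0.00976). Mmp19 fell, with 21.4 and 8.97 FPKM in Control and 2.63 and 3.67 FPKM in Model (log2 fold change -1.86). In turn, 7, 12, 3 and 7 members were upregulated with a library left out, and Timp1 and Mmp13 kept the call in each of the 4 fits.

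Fc receptor, complement and coagulation genes included 10 upregulated and 0 downregulated DEGs among 31 (median 0.10, -0.45 with fragment-total scaling). Serpinb2, an inhibitor of plasminogen activators, had 4.97 and 21.8 FPKM in Control and 508 and 444 FPKM in Model (log2 fold change 5.35, limma adjusted p = 0.00324). Fcgr1, the high-affinity IgG receptor and a macrophage marker, had 18.3 and 7.87 FPKM in Control and 161 and 147 FPKM in Model (log2 fold change 3.57, limma adjusted p = 0.00326). Both genes remained DEGs without Model replicate 1, and 8, 10, 5 and 6 members were upregulated with the libraries left out in turn. The matricellular protein gene Thbs1, of the list of peritoneal macrophage genes, had 89.96 and 48.8 FPKM in Control and 334 and 399 FPKM in Model (log2 fold change 2.44, limma adjusted p = 0.00899; 0.0575 without Model replicate 1).

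Receptors for chemoattractants, nucleotides and metabolites split into induced and repressed members, with 7 upregulated and 5 downregulated of 33. Hcar2, the receptor of niacin and hydroxybutyrate, had 0.748 and 21.1 FPKM in Control and 194 and 199 FPKM in Model (log2 fold change 4.99, limma adjusted p = 0.0191), with unequal Control libraries. Adora2b, a receptor of adenosine, the breakdown product of ATP, had 1.37 and 5.61 FPKM in Control and 112 and 76.4 FPKM in Model (log2 fold change 4.56, limma adjusted p = 0.00285). Ccrl2, a non-signalling receptor that binds chemerin, had 46.2 and 144 FPKM in Control and 456 and 379 FPKM in Model (log2 fold change 2.33, limma adjusted p = 0.0297). On the repressed side, Cxcr4, the receptor of CXCL12, had 79.8 and 19.2 FPKM in Control and 2.19 and 2.64 FPKM in Model (log2 fold change -3.57, limma adjusted p = 0.00926), the proton-sensing receptor gene Gpr65 had 12.7 and 8.37 FPKM in Control and 0.993 and 0.406 FPKM in Model (log2 fold change -2.76, limma adjusted p = 0.0022) and the sphingosine 1-phosphate receptor gene S1pr1 had 13.3 and 11.4 FPKM in Control and 2.79 and 2.78 FPKM in Model (log2 fold change -1.81, limma adjusted p = 0.00317). Leaving the libraries out in turn gave 6, 12, 2 and 3 upregulated and 5, 9, 2 and 3 downregulated members.

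The largest decreases were spread over membrane, signalling and metabolic genes. Slc43a2 (ENSMUSG00000038178, chromosome 11, 75531694 to 75577575, plus strand), a transporter of large neutral amino acids (LAT4), fell most, with 27.5 and 31.1 FPKM in Control and 0.769 and 1.19 FPKM in Model (log2 fold change -3.94, standard error 0.21, limma adjusted p = 0.000498). Cd300lb (ENSMUSG00000063193, chromosome 11, 114922781 to 114934386, minus strand), an activating receptor of the CD300 family, had 96.7 and 66.2 FPKM in Control and 5.76 and 7.43 FPKM in Model (log2 fold change -3.42, standard error 0.34, limma adjusted p = 0.00224). Tmem86a (ENSMUSG00000010307, chromosome 7, 47050601 to 47054777, plus strand), an enzyme that hydrolyses lysoplasmalogen lipids, had 40.5 and 23.8 FPKM in Control and 1.92 and 1.78 FPKM in Model (log2 fold change -3.49, standard error 0.30, limma adjusted p = 0.00155). The Control libraries were close for Slc43a2, and Control replicate 1 was the higher for Tmem86a and Cd300lb. Sesn1, a sestrin that restrains mTORC1, had 15.9 and 9.32 FPKM in Control and 0.996 and 0.843 FPKM in Model (log2 fold change -2.78, limma adjusted p = 0.00217). Fbxo32, a substrate receptor of a ubiquitin ligase, had 28.3 and 6.44 FPKM in Control and 0.772 and 0.583 FPKM in Model (log2 fold change -3.14, limma adjusted p = 0.0126), and Cerk, the kinase of ceramide, had 51.2 and 24.1 FPKM in Control and 2.39 and 5.18 FPKM in Model (log2 fold change -2.99, limma adjusted p = 0.00618).

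The kinase gene Mknk2, whose product phosphorylates the translation factor eIF4E, had 40.5 and 14.6 FPKM in Control and 1.35 and 3.22 FPKM in Model (log2 fold change -3.02). Pyridoxal kinase (Pdxk) had 15.1 and 13.7 FPKM in Control and 0.840 and 1.44 FPKM in Model (log2 fold change -2.86), and 39.0% of its exonic bases overlap another gene. Ypel3, Arhgap19, Adgre5 (CD97) and Fblim1 fell by 3.16, 2.95, 2.82 and 2.78 on the log2 scale. For Arhgap19, a regulator of small GTPases, the Control libraries were far apart, at 23.8 and 3.57 FPKM, with 0.482 and 0.276 FPKM in Model. Limma adjusted p over the 15 largest decreases ranged from 0.000498 to 0.0288. All 15 were DEGs without either Control library and with fragment-total scaling, 12 without Model replicate 2 and 6 without Model replicate 1, where adjusted p ran from 0.0196 to 0.140.

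Among transcription factors of the myeloid lineage, 5 of 23 were downregulated and 4 upregulated (median -0.19), against 5.80% and 9.25% of all genes tested. Cebpa (ENSMUSG00000034957, chromosome 7, 35119293 to 35121928, plus strand), required for granulocyte and monocyte differentiation, had 152 and 68.4 FPKM in Control and 11.4 and 10.9 FPKM in Model (log2 fold change -3.09, standard error 0.40, limma adjusted p = 0.00458). Tfeb, the factor that activates lysosomal and autophagy genes, had 9.86 and 4.75 FPKM in Control and 0.825 and 0.433 FPKM in Model (log2 fold change -2.29, limma adjusted p = 0.00646), and Pparg, a factor of lipid uptake, had 24.2 and 9.31 FPKM in Control and 2.74 and 2.08 FPKM in Model (log2 fold change -2.25, limma adjusted p = 0.0122). Maf and Tfec rose, with log2 fold changes of 1.53 and 1.86, and Arid5a, which protects Il6 mRNA from decay, had 0.652 and 0.645 FPKM in Control and 3.44 and 3.44 FPKM in Model (log2 fold change 1.43, limma adjusted p = 0.0054). Downregulated members numbered 4, 6, 0 and 4 with the libraries left out in turn, and adjusted p without Model replicate 1 was 0.0538 for Cebpa, 0.0518 for Tfeb and 0.0832 for Pparg.

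Lipid handling genes were mostly lower in Model. Of 30 LXR target and lipid handling genes, 24 had a lower mean, compared with 4788 of all 9833 genes tested. In this list 7 were downregulated (23.3%, with 5.80% of all genes tested) and 1 upregulated (3.33%, with 9.25%). The median was -0.48 (-0.64 in batch 1 and -0.35 in batch 2). Nceh1, a hydrolase of cholesterol esters, had 101 and 48.98 FPKM in Control and 15.2 and 14.1 FPKM in Model (log2 fold change -2.19, limma adjusted p = 0.0102). Hilpda, an inhibitor of lipolysis on lipid droplets, was the member that rose, with 55.2 and 47.9 FPKM in Control and 279 and 209 FPKM in Model (log2 fold change 2.21, limma adjusted p = 0.00732). Among cholesterol and fatty acid synthesis genes 4 of 29 fell (13.8%, with 5.80% of all genes tested) and 0 rose (median -0.10). The desaturases Fads1 and Scd2 had 12.3 and 9.21 FPKM in Control and 1.52 and 1.53 FPKM in Model and 8.11 and 10.9 FPKM in Control and 0.988 and 1.67 FPKM in Model (log2 fold changes -2.21 and -2.18, limma adjusted p = 0.00213 and 0.0038), and both remained DEGs without Model replicate 1. Dhcr7, the last enzyme of cholesterol synthesis, had 4.98 and 2.57 FPKM in Control and 0.268 and 0.322 FPKM in Model (log2 fold change -1.84, limma adjusted p = 0.00945). Downregulated members of the LXR list numbered 2, 13, 1 and 3 with the libraries left out in turn.

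Autophagy genes were downregulated in 7 of 36 cases (19.4%, with 5.80% of all genes tested) and upregulated in 0, with a median of -0.43. The autophagy receptor gene Calcoco1 had 4.43 and 1.62 FPKM in Control and 0.408 and 0.236 FPKM in Model (log2 fold change -1.51, limma adjusted p = 0.0315), the lipid transfer gene Atg2a had 5.29 and 4.72 FPKM in Control and 0.792 and 1.85 FPKM in Model (log2 fold change -1.41, limma adjusted p = 0.0161) and the cargo receptor gene Nbr1 had 10.8 and 6.07 FPKM in Control and 1.64 and 3.53 FPKM in Model (log2 fold change -1.40, limma adjusted p = 0.0374). These levels were low in both groups. Pink1, the kinase that marks damaged mitochondria, had 17.9 and 10.2 FPKM in Control and 6.63 and 4.81 FPKM in Model (log2 fold change -1.13, limma adjusted p = 0.0419; 0.11 without Model replicate 1). In the order above, 0, 11, 0 and 3 autophagy genes were downregulated with a library left out.

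Lysosomal genes gave few DEGs on the deposited scale. Of 49, 3 were downregulated (6.12%, near the 5.80% of all genes tested) and 2 upregulated (4.08%, with 9.25%). Of the 49, 34 had a lower mean in Model, with a median of -0.30. The V-ATPase subunit gene Atp6v0d2 and the acid lipase gene Lipa, among the 5 DEGs with the highest level in Control, had 428 and 261 FPKM in Control and 121 and 122 FPKM in Model and 741 and 777 FPKM in Control and 291 and 309 FPKM in Model (log2 fold changes -1.45 and -1.34). Acp5, the tartrate-resistant acid phosphatase, rose, with 31.1 and 51.03 FPKM in Control and 257 and 218 FPKM in Model (log2 fold change 2.54, limma adjusted p = 0.0065), as did the protease gene Ctsc (log2 fold change 1.76). With fragment-total scaling 11 lysosomal genes were downregulated DEGs (median -0.84), and with quantile normalization 13 (median -0.82). The calls of Atp6v0d2, Lipa and Acp5 were lost without Model replicate 1 (adjusted p = 0.118, 0.113 and 0.0556).

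Protein genes of the mitochondrial genome were lower in Model in 12 of 12 cases, compared with 4788 of all 9833 genes tested. Of the 12, 5 were downregulated DEGs (41.7%, with 5.80% of all genes tested). The median was -1.21 (-1.27 in batch 1 and -1.18 in batch 2). The summed level of the 12 genes was 8209 and 8512 FPKM in Control and 3479 and 4023 FPKM in Model. mt-Cytb and mt-Nd1, of complex III and complex I, had 1255 and 1027 FPKM in Control and 287 and 316 FPKM in Model and 1208 and 1077 FPKM in Control and 346 and 339 FPKM in Model (log2 fold changes -1.91 and -1.73, limma adjusted p = 0.0129 and 0.0274). Neither passed the test without Model replicate 1 (0.0705 and 0.11), when 0 of the 12 did. The nuclear genes of oxidative phosphorylation had 0 upregulated and 1 downregulated DEGs among 89 and a median of 0.21, which was -0.31 with fragment-total scaling. The downregulated gene was the assembly factor gene Uqcc3, with 6.44 and 3.01 FPKM in Control and 1.03 and 1.79 FPKM in Model (log2 fold change -1.20).

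Scavenger and efferocytosis receptors showed 3 upregulated and 3 downregulated DEGs among 30 (10% each, with 9.25% and 5.80% of all genes tested). Msr1 (scavenger receptor A) had 44.7 and 123 FPKM in Control and 326 and 307 FPKM in Model, the integrin gene Itgav had 9.60 and 13.8 FPKM in Control and 47.5 and 36.2 FPKM in Model and the phosphatidylserine-bridging receptor gene Axl had 24.4 and 48.2 FPKM in Control and 113 and 116 FPKM in Model (log2 fold changes 2.08, 1.76 and 1.71). Stab1 (stabilin-1) had 12.2 and 10.5 FPKM in Control and 1.45 and 3.03 FPKM in Model and Scarb1, the HDL receptor, had 4.36 and 2.78 FPKM in Control and 0.667 and 0.934 FPKM in Model (log2 fold changes -1.97 and -1.33), and Itgb3, a partner of Itgav, fell by 1.26 on the log2 scale. Limma adjusted p of these 6 genes was 0.0308, 0.0115, 0.0246, 0.00721, 0.0177 and 0.0175, and none passed the threshold without Model replicate 1. Cd36, the most abundant gene of the list, did not pass the test, with 1032 and 1030.3 FPKM in Control and 962 and 834 FPKM in Model (limma adjusted p = 0.715).

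Genes of iron and metal handling moved in both directions, with 6 of 20 upregulated and 3 downregulated. Lcn2, which binds bacterial siderophores, had 0.333 and 1.45 FPKM in Control and 41.6 and 40.5 FPKM in Model (log2 fold change 4.54, limma adjusted p = 0.00106). Hamp, the gene of hepcidin, which blocks iron export, had 0.320 and 0.107 FPKM in Control and 8.12 and 5.35 FPKM in Model (log2 fold change 2.66, limma adjusted p = 0.00325). The transferrin receptor gene Tfrc had 31.5 and 33.1 FPKM in Control and 10.6 and 11.1 FPKM in Model (log2 fold change -1.49, limma adjusted p = 0.00803) and the ferrireductase gene Steap3 had 16.4 and 6.58 FPKM in Control and 1.45 and 1.63 FPKM in Model (log2 fold change -2.18, limma adjusted p = 0.011). Lcn2, Hamp and Tfrc remained DEGs without Model replicate 1, whereas Steap3 had an adjusted p of 0.0903. The metallothionein gene Mt1 had 77.9 and 61.7 FPKM in Control and 302 and 163 FPKM in Model (log2 fold change 1.67, limma adjusted p = 0.0322; 0.121 without Model replicate 1), and catalase (Cat), of the list of redox genes, had 58.9 and 65.02 FPKM in Control and 19.1 and 16.8 FPKM in Model (log2 fold change -1.73, limma adjusted p = 0.00823).

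Amino acid transporters beside Slc43a2 and Slc7a2 included the lysosomal peptide transporter Slc15a3, with 95.3 and 119 FPKM in Control and 295 and 307 FPKM in Model (log2 fold change 1.49), and the proton-coupled transporters Slc36a1 and Slc36a4, with log2 fold changes of -1.69 and -1.20. In the list 2 of 20 rose (10%, near the 9.25% of all genes tested) and 3 fell (15%, with 5.80%), and with the libraries left out in turn 1, 3, 0 and 0 were upregulated. Cell cycle genes had 4 upregulated and 2 downregulated DEGs among 28 (14.3% and 7.14%). Ccnd2, the gene of cyclin D2, had 0.0883 and 0.409 FPKM in Control and 15.4 and 25.3 FPKM in Model (log2 fold change 4.07, limma adjusted p = 0.00106). The inhibitor gene Cdkn1a (p21) had 17.7 and 48.7 FPKM in Control and 147 and 114 FPKM in Model (log2 fold change 2.10, limma adjusted p = 0.0274; 0.141 without Model replicate 1). Within the retinoblastoma family, Rb1 fell by 1.66 and Rbl2 by 1.09, while Rbl1 rose by 1.88 on the log2 scale.

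Several groups gave few DEGs. Cytosolic ribosomal protein genes had 0 upregulated and 1 downregulated DEG among 79, with a median of 0.41 that was -0.13 with fragment-total scaling and -0.10 without Model replicate 1. Mitochondrial ribosomal protein genes had 2 and 1 among 75. Numbered zinc finger (Zfp) genes had 7 and 5 among 176. The unfolded protein response had 0 and 1 among 25, with Herpud1 at 9.60 and 14.9 FPKM in Control and 4.95 and 4.73 FPKM in Model (log2 fold change -1.15, limma adjusted p = 0.0242). Heat shock chaperones had 1 and 0 among 24, and genes of the NRF2 response 2 and 3 among 33, the latter 9.09% with 5.80% of all genes tested. Of 15 common housekeeping genes, 2 rose and 1 fell (13.3% and 6.67%, somewhat above 9.25% and 5.80%), among them Actb, the gene of β-actin, with 866 and 1108 FPKM in Control and 3270.0 and 2613 FPKM in Model (log2 fold change 1.58, limma adjusted p = 0.0356; 0.16 without Model replicate 1). A count of DEGs near the background does not show that a group is unchanged at this number of libraries.

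**Figure D5:**
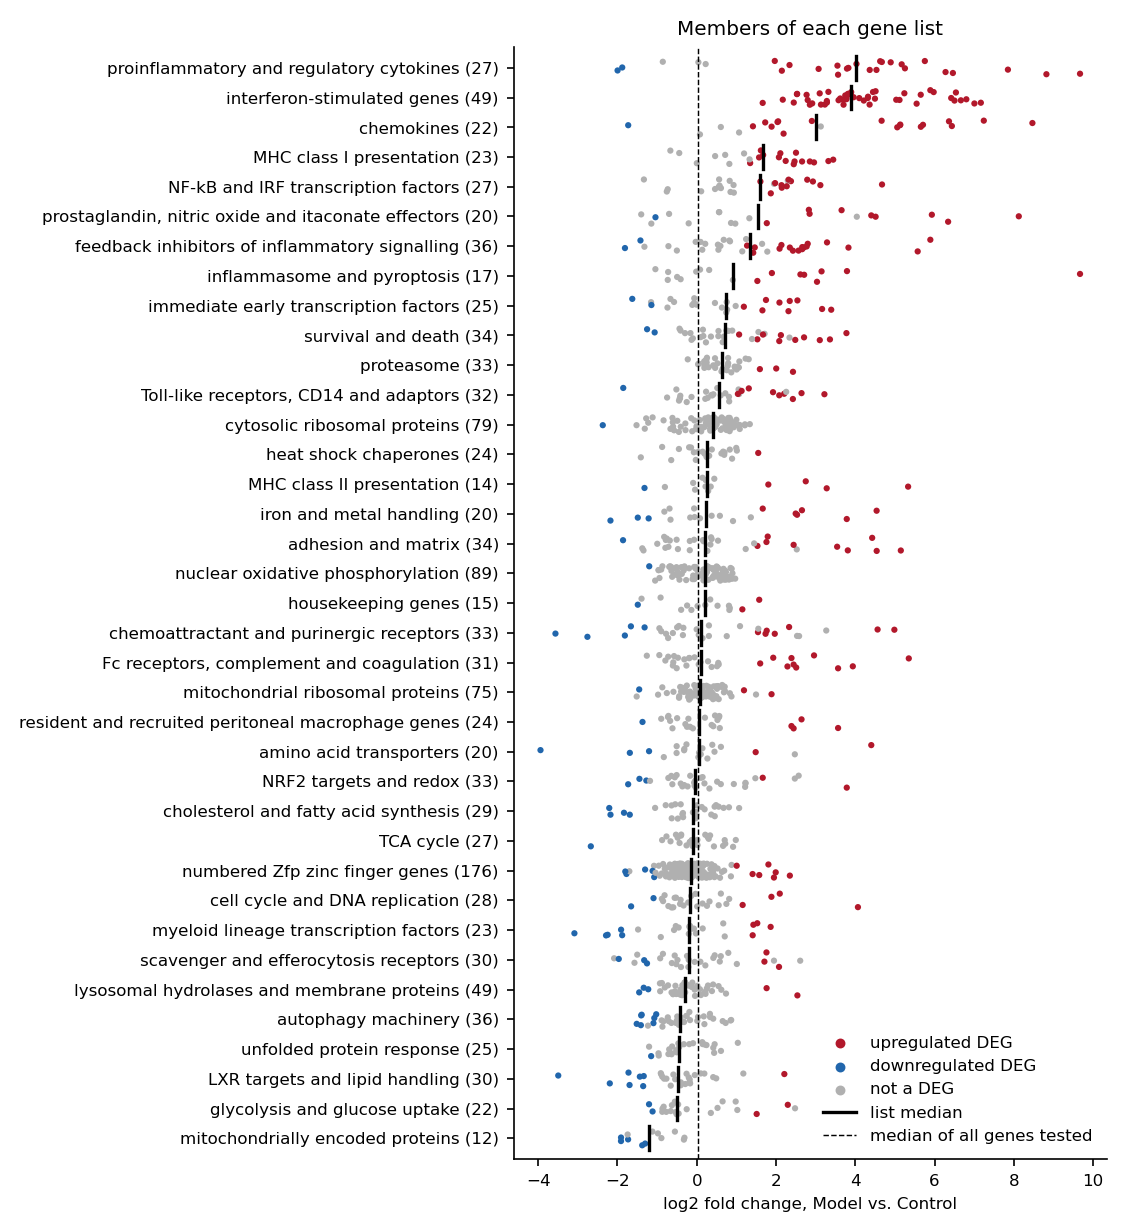
Log2 fold change of Model vs. Control (x axis) of each member tested in 37 gene lists (rows, with the number of members), in red for upregulated DEGs, blue for downregulated DEGs and grey for other genes, with a bar at the median of each list and a dashed line at the median of all genes tested. The medians run from 4.03 for cytokines to -1.21 for mitochondrially encoded protein genes.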

How the data were processed

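RNA-seq was compared between 2 Control and 2 Model libraries of mouse peritoneal macrophages, grouped by the treatment in the sample labels. The authors deposited 1 table of FPKM per gene and library, quantified with RSEM according to the methods of the paper, whereas the submitters' processing notes list HISAT2, featureCounts 1.5.0-p3 and GRCm39. Which of them made the table was not settled. Gene positions are those of GRCm38, since 98.3% of the 54409 identifiers shared with GENCODE M21 had the same chromosome, start and end. In each library, 100% of the products of FPKM and gene length were whole multiples of 1 step (tolerance 0.1 of a step), so fragments could be recovered. The ratio of the deposited scale to a median-of-ratios size factor was nearly constant (within 16.9 to 17.2, in fragments divided by the per-million unit of FPKM) over the 6 libraries, so the scale follows such size factors and not the library totals. A count of 3 fragments, the limit that 0 allows, corresponds to 0.131 to 0.213 FPKM for a gene of 1 kb, for counting error only. Of the per-library columns, 0 had no sample.

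The fit used limma 3.58.1 in R 4.3.3 (lmFit, contrasts.fit and eBayes with trend). Genes whose mean was 1 FPKM or more (9833) entered as log2(FPKM + 1), with all 6 libraries in 3 groups and 3 residual degrees of freedom. Tests were two-sided with Benjamini-Hochberg adjustment over all genes tested. A count model was not used, as the deposited unit is FPKM. On simulated data for Model vs. Control with 9833 genes, 34 of 61 genes with a true log2 change of 1.5, 48 of 71 with 2 and 60 of 68 with 3 were called, with 5 false calls. The simulated noise was drawn separately for each gene. It lacked the difference between the Control libraries that many genes share, so these rates may not hold for the real libraries. The labels give replicate numbers as batches. Differences between replicates correlated across genes with r = 0.117 between Control and Model, -0.0967 between Control and MUS and 0.132 between Model and MUS, and the batch entered an alternative fit as a block.

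The members and the 45 gene lists were chosen with earlier results of these data known, so list counts are descriptions. Genes named are the 15 largest increases and decreases among protein-coding DEGs with separate groups, up to 3 DEGs in each direction and the most abundant member of each list, genes of proteins the study measured, and the 5 DEGs with the highest level in each group. Of 189 such genes, 139 are described, and some of the others are not reported here. Marker genes of other cells, Csf1r, Acod1 and Cd80 were named after their values were seen. Shared sequence was counted as 50-base stretches of transcripts found in another gene. Alternatives covered the pseudocount, the filter on low values, the scaling, the variance model, voom on recovered fragments, the batch, GC content, gene length and each library left out in turn. Python 3.11.15, NumPy 2.4.6, pandas 2.3.3 and Matplotlib 3.10.9 were used for tables and figures.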

Additional observations from a re-analysis of the deposited data

How the results depend on the processing

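With 23 alternatives, the 1480 DEGs (910 upregulated, 570 downregulated) depended on scaling, on the libraries, on the number of genes tested and on the form of the test. With each library left out in turn, DEGs numbered 413 (without Model replicate 1) to 2122 (without Control replicate 2), 352 to 1227 of them upregulated and 61 to 895 downregulated. The fit of only the 4 libraries gave 827 DEGs, 556 upregulated and 271 downregulated. Without the filter, over 29415 genes, there were 272 (233 and 39), and with a minimum mean of 5 FPKM, 324 were downregulated. Fragment-total scaling gave 2270 DEGs with 1636 downregulated, scaling without mitochondrial and the 20 highest genes 2442 (575 upregulated and 1867 downregulated), quantile normalization 1463 (725 and 738) and voom with fragment-total scaling 2829 with 2164 downregulated. A test against a log2 fold change of 1 (treat) called 228 (210 and 18). The share of upregulated DEGs was 61.5%, 27.9% with fragment-total scaling and 49.6% with quantile normalization. Voom on the deposited scale, chosen after seeing the data, gave 1801 DEGs, and the replicate block 1575, of which 1444 were shared with the 1480. Gene-length correction with the block, also chosen after seeing the data, gave 1482.

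Of 139 genes named by rule, 138 kept their direction in every alternative that tested them, but 32 kept the same call in all of these. Calls were lost for 48 genes in the fit of only the 4 libraries, 19 with quantile normalization, 87 with treat and 100 without the filter. The filter at a mean of 5 FPKM tested 126 of the 139. For the 136 that were DEGs, a kept direction with a library left out follows from the choice of genes. Both Model values of each lay on the same side of both Control values, so no single omission could reverse the sign. The count of 138 is therefore a description. Pycard, not a DEG, turned to -0.19 with fragment-total scaling, -0.27 with scaling without mitochondrial and the 20 highest genes, -0.21 with voom on fragment totals and ranged from -0.20 (without Model replicate 1) to 0.83 (without Model replicate 2) with libraries left out. The replicate block changed no other call of a named gene than those of Lipa, Ifi30 and Actb. The causes of these changes were not tested, except that fewer samples or more genes enter by construction. Depth limits genes under 1 FPKM, which were not tested here.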

Other observations

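Beyond protein-coding genes, 1102 other features passed the filter. Of these, 113 were upregulated, close to the 9.25% of all genes tested, and 31 downregulated, below the 5.80% of all genes tested. Of 87 antisense genes, 19 were upregulated and 2 downregulated (median log2 fold change 0.50), and of 83 lincRNA genes 12 and 6. Since no source used here states that strand was counted, reads of an antisense gene and of its partner cannot be told apart. Processed pseudogenes, many of which share sequence with their parent genes, had 31 upregulated and 10 downregulated among 497, both below the shares of all genes tested. Polymorphic pseudogenes had 5 upregulated among 9. Of 76 miRNA genes, measured here as stretches of poly-A RNA and not as mature miRNAs, 6 rose and 3 fell, also below these shares.

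The additional genes seen in Model replicate 1 included protein-coding genes, lincRNA genes and processed pseudogenes. At least 1 fragment was found on 16619 protein-coding genes there, compared with 13342 in Model replicate 2, on 1741 lincRNA genes compared with 623, and on 2493 processed pseudogenes compared with 1474. Genes that were not tested held 0.869% of its fragments and 0.841% in Model replicate 2.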
